A study of Danio rerio with 9 samples.

Results

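Rods and cones turn light into an electrical signal through a shared chain of proteins, and the genes of that chain are described here in whole larvae of the zebrafish. Of the 32520 gene rows of the expression table, 52 were members. They were the rows whose gene symbol, in any case, equalled 1 of 43 listed names or the stem of such a name, with or without a suffix for a duplicate gene (such as a or b). Of the 43 names, 26 had a row under their own symbol and 14 were met only through the stem, while the rule found no row for opn1sw1, gngt1 and pde6a. Rows that a related symbol or the study's annotation ties to these names are given below. By the part they play, 23 rows were cone genes, 15 were rod genes, 4 serve rods and cones alike, 5 belong to the visual cycle, and 5 are photoreceptor transcription factors or disc proteins.

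In the dark, cyclic GMP holds a channel of the outer segment open. Light changes the shape of an opsin, the opsin activates transducin, transducin releases the phosphodiesterase PDE6 from its inhibitory subunit, and PDE6 breaks cyclic GMP down so that the channel closes. Opsin kinases and arrestins end the opsin's activity, RGS9 ends that of transducin, and guanylate cyclases make cyclic GMP again. Rods and cones use separate versions of most of these proteins, and the zebrafish often has a pair of genes where mammals have a single gene. The visual cycle turns the bleached chromophore back into 11-cis-retinal, in the pigment epithelium and in Mueller glia. Larval vision of the zebrafish rests mainly on cones, since its rods mature later. Photoreceptors of the pineal organ use some of the same genes.

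The larvae were of the wild-type AB strain and were taken whole at 5 days of age. SBMO pools came from embryos that had 4.6 nL of sialylated bovine milk oligosaccharides at 100 mmol/L injected into the yolk at 4.7 hours after fertilisation. SHMO pools had the same volume and concentration of sialylated human milk oligosaccharides, and Ctrl pools were not injected. Each group had 3 different pools of larvae, 9 in all, which the labels call biological replicates. Each pool is a replicate here, so p-values measure the spread between pools. That spread may be technical in part, since nothing says that pools of a group came from separate spawnings. No saline-injected pool is among the 9, so in each difference from Ctrl the injection and the oligosaccharide cannot be told apart. Whether pools of different groups came from the same spawning, and at which hour each was collected, is not given in the sources used here.

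The values are TPM, estimated by the authors with RSEM from reads aligned with STAR to GRCz11. They are transcript abundances, corrected for gene length and scaled to the same total in each library, so levels can be compared between genes. TPM do not show the depth behind them, and the fragment numbers that the study reports were not used here. Differences are log2(FC) values, the difference of group means of log2(scaled TPM + 0.1), which understates the change of genes with low TPM. They were tested with limma in a single model of all 9 pools over the 19051 genes that averaged 1 TPM or more. A gene is said to be called, or to rise or fall, where its p, adjusted by Benjamini-Hochberg, did not exceed 0.05 and its log2(FC) was 0.58 or more in either direction. Adjusted p values come from that model or from alternatives to it, which left out each pool by itself or changed a step of the processing; where several pools are named, each was left out alone. Errors are SE for log2(FC) and SD over 3 pools for means. Pool values, sums and overlaps are of TPM before the scaling used in the tests, so the order of close pools can differ after it. Some libraries stood apart from the rest of their group in gene lists that bear on the eye. In Ctrl replicate 3 the median of 34 neuron genes lay -0.82 log2 units from their mean over the 9 pools, against -0.32 and -0.20 in the other Ctrl pools. In SHMO replicate 1 the 13 pigment cell genes lay 0.79 units above theirs, against 0.19 and 0.13 in the other SHMO pools. In SBMO replicate 1 the same genes lay -0.93 units from that mean, against -0.47 and -0.06 in the other SBMO pools. Values without each of these libraries are given beside the results of members and of named genes that they decide. Counts and medians of the gene lists beyond the members were worked out with all 9 pools only, so how far they rest on these libraries is not known.

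Defining genes of rods and cones were present in every pool. Cone transducin GNAT2 had 374 to 514 TPM in SBMO pools, 380.0 to 495 TPM in SHMO pools and 367 to 419.9 TPM in Ctrl pools. Rod transducin GNAT1 had 111 to 122 TPM in SBMO pools, 67.7 to 80.1 TPM in SHMO pools and 99.9 to 116 TPM in Ctrl pools. The members held 1.30, 1.20 and 1.24% of all TPM in SBMO pools, 0.803, 1.08 and 1.03% of all TPM in SHMO pools and 1.53, 1.30 and 1.35% of all TPM in Ctrl pools. Rows that averaged at least 1000 TPM over the 9 pools included a cone transducin gamma row (GNGT2, ENSDARG00000103543), the cone phosphodiesterase inhibitor pde6ha and the red opsin opn1lw2, while 22 of the 52 averaged under 10 TPM. The green opsins opn1mw3 and opn1mw4, at no more than 0.46 and 0.03 TPM in any pool, lay below the filter, which left 50 rows to test. The symbols of 25 rows were shared by several rows (11 symbols), most of them human symbols. The table does not say which zebrafish duplicate such a row is, so these rows carry their Ensembl identifier here. RSEM divides the reads that fit several near-identical genes, so levels of duplicate genes are less certain than those of single genes.

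In larvae treated with SBMOs, 8 of the 50 members rose against Ctrl (16%, where 8.31% of all 19051 genes rose) and 7 fell (14%, where 11.5% of all genes fell). Cone arrestins, the cone phosphodiesterase inhibitor pde6ha and the visual cycle genes RPE65 (ENSDARG00000007480) and rlbp1b were lower, and the red opsin opn1lw1, PDE6H and the photoreceptor factors NR2E3 and crx were higher. Among cone genes 4 rose and 5 fell of 21 tested, among rod genes 2 rose and 0 fell of 15 (2 lower at an unadjusted p under 0.05), and among the visual cycle genes 0 rose and 2 fell of 5 (2 higher at an unadjusted p under 0.05). Over the 50 members the median log2(FC) was 0.08, against 0.05 over all genes. It was -0.09 for cone genes, 0.15 for rod genes and 0.06 for the visual cycle. The 8 higher members were 3 without SBMO replicate 2 and 3 without Ctrl replicate 3, and the 7 lower ones were 4 without Ctrl replicate 3. Here and below, shares of all genes were worked out for the main model only. A change of such counts in an alternative therefore cannot be told from a change over all genes. Without SBMO replicate 2 the cone median was 0.051, and with rows of the exact member symbol only it was 0.15. The visual cycle median turned to -0.06 without Ctrl replicate 2, to -2.04 with a filter at a mean of 5 TPM and to -0.77 with rows of the exact member symbol only. The median over all members was -0.015 with that filter.

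In larvae treated with SHMOs, 9 of the 50 members fell against Ctrl (18%, where 5.32% of all genes fell) and 2 rose (4%, where 3.58% of all genes rose). The lower members were 7 of the 21 cone genes, led by pde6ha, a cone transducin gamma row and the green opsin opn1mw2, and 2 of the 15 rod genes. In the visual cycle 0 rose and 0 fell, with 0 higher and 3 lower of 5 at an unadjusted p under 0.05, and 0 rod genes rose, with 1 higher at that level. The median log2(FC) was -0.26 over the members, against 0.04 over all genes, and it was -0.58 for cone genes, -0.19 for rod genes and -0.41 for the visual cycle. The 9 lower members were 4 without SHMO replicate 3 or Ctrl replicate 1 and 5 without SHMO replicate 2, Ctrl replicate 2 or Ctrl replicate 3. The 2 higher members were 0 without SHMO replicate 2 or 3, and 1 without Ctrl replicate 1 or 2. Shares of all genes without these pools were not worked out. Leaving out Ctrl replicate 2 moved the rod median to -0.051. With a filter at a mean of 5 TPM the visual cycle median was -0.997.

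Between SBMO and SHMO larvae, 8 members were higher with SBMOs (16%, where 1.83% of all genes were higher) and 1 was lower (2%, where 2.74% of all genes were lower). The higher members were 5 cone genes, 2 rod genes and 1 visual cycle gene, and the lower one was a cone opsin kinase. The median log2(FC) was 0.27 over the members, against 0.02 over all genes, and it was 0.45 for cone genes, 0.23 for rod genes and 0.41 for the visual cycle. The 8 higher members were 3 without SBMO replicate 2 or SHMO replicate 1, 4 without SHMO replicate 3 and 5 without Ctrl replicate 1 or 2, and the single lower member became 4 without SBMO replicate 3. Shares of all genes were again not worked out without these pools. The visual cycle median turned to -0.93 with a filter at a mean of 5 TPM and to -0.26 with rows of the exact member symbol only. Over the 3 comparisons 25 of the 50 members were called at least once and 25 never. The comparisons with Ctrl share their Ctrl pools, and 3 members fell in both (pde6ha, ARR3 ENSDARG00000098475 and CNGA3 ENSDARG00000070726), while 1 rose in both (NR2E3). For these counts over several comparisons the share of all genes was not worked out, so they cannot be set against it. In a pool of whole larvae, fewer cells of a type and less RNA per cell cannot be told apart, nor can the photoreceptors of the eye and of the pineal organ.

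**Figure D1:**
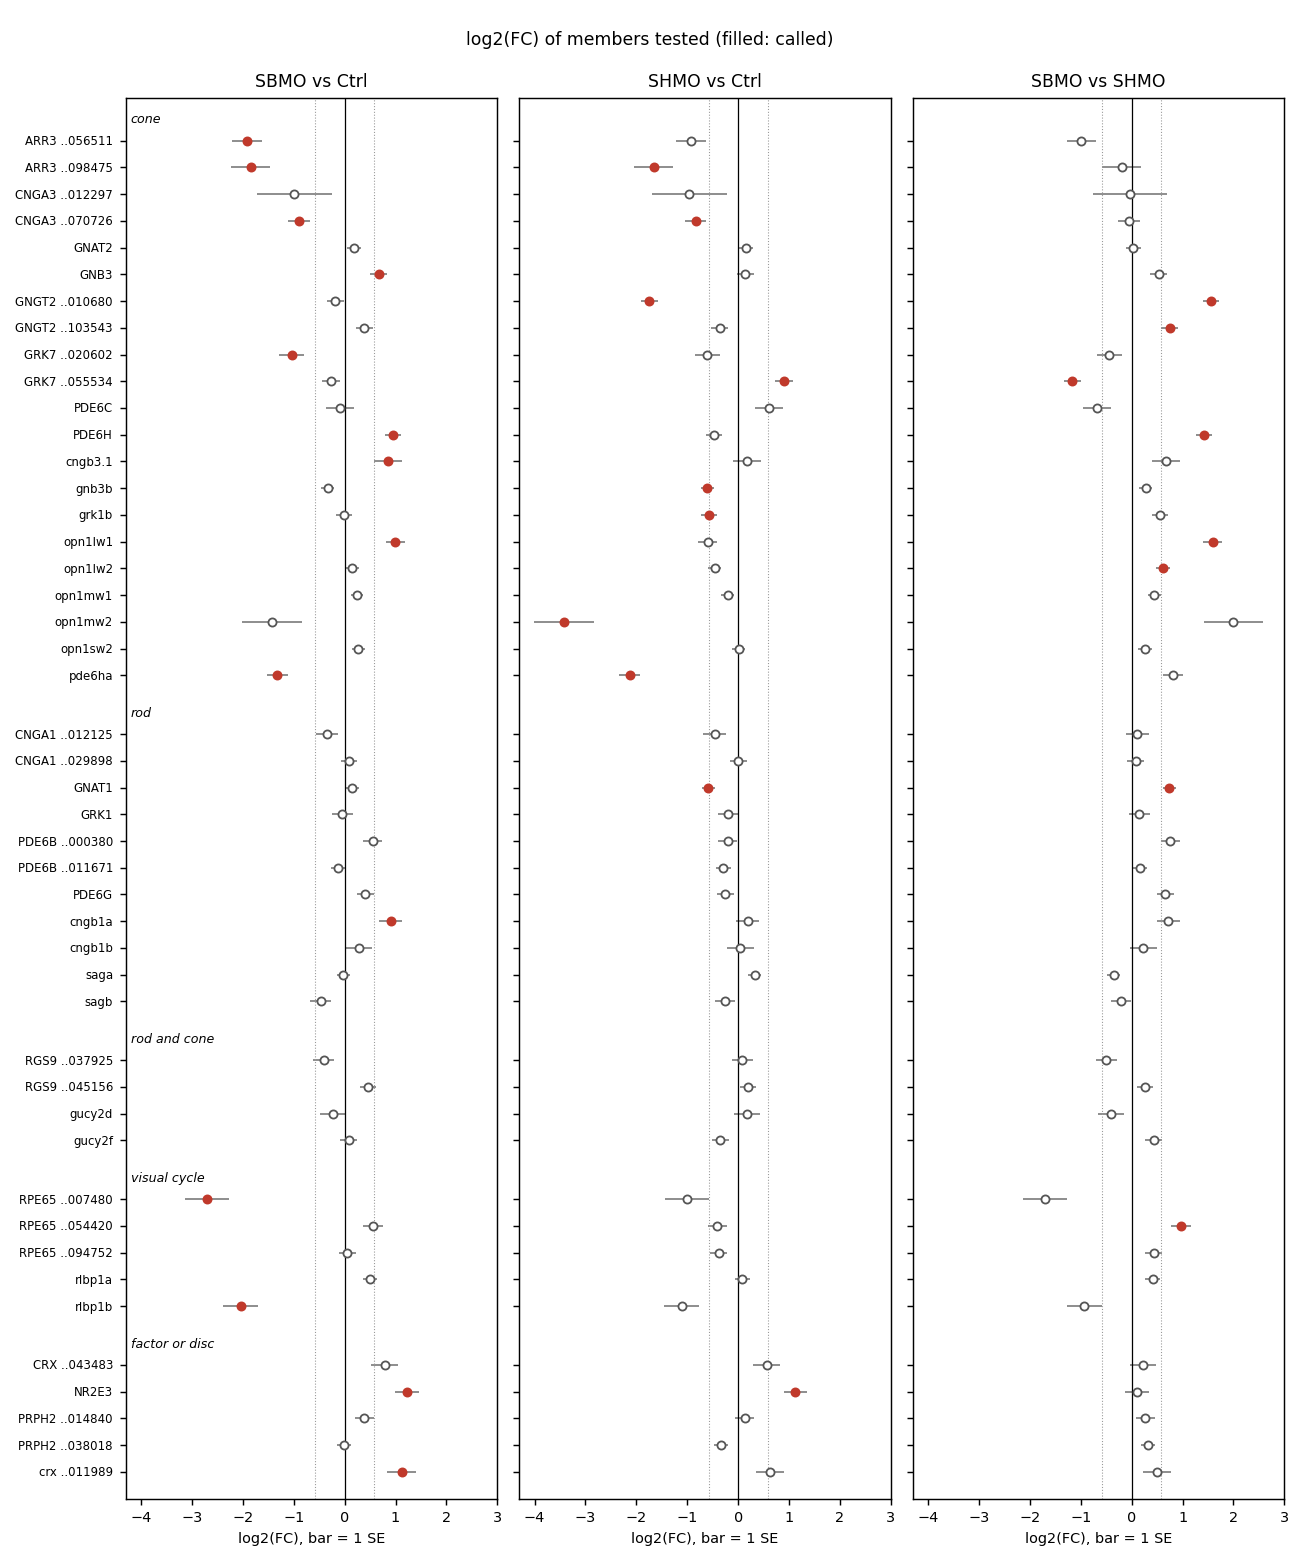
Differences in log2(FC) for members tested, by class, in SBMO against Ctrl (left), SHMO against Ctrl (middle) and SBMO against SHMO (right). Points are log2(FC), bars 1 standard error, filled points called genes, and dotted lines 0.58 in either direction; numbers after a symbol are the last digits of the Ensembl identifier. In SHMO against Ctrl 7 cone genes and GNAT1 lie among the called genes to the left, and opn1mw2, at -3.42, lies farthest from 0.

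Cone and visual cycle RNA were also summed over rows. The 23 cone rows summed to 10580.0, 9578 and 9757 TPM in SBMO pools, 6136, 8133 and 7879 TPM in SHMO pools and 12840.0, 10990.0 and 11940.0 TPM in Ctrl pools, and each SHMO pool lay below each SBMO pool, which lay below each Ctrl pool. The row pde6ha made up 10.5, 16.4 and 18.8% of the cone sum in SBMO pools, 11.6, 11.9 and 13.1% of the cone sum in SHMO pools and 30.3, 33.7 and 30.1% of the cone sum in Ctrl pools. Without pde6ha the cone sum was 9466, 8012 and 7923 TPM in SBMO pools, 5427, 7165 and 6850 TPM in SHMO pools and 8950, 7286 and 8343 TPM in Ctrl pools. SBMO and Ctrl pools then overlapped, and SHMO pools still lay below all others. Neither sum holds the abundant short-wave opsin row OPN1SW, given below, which lies outside the member rule. OPN1SW had 2034 TPM in SHMO replicate 2 and 1846 TPM in Ctrl replicate 2. With it added to the sum without pde6ha, SHMO replicate 2 lies above Ctrl replicate 2, so SHMO and Ctrl pools overlap in TPM before scaling. The scaling factors of the tests were 1.06 for SHMO replicate 2 and 0.938 for Ctrl replicate 2. After division by the factors of each pool, all SHMO pools lie below all Ctrl pools, so that overlap depends on the scaling. The 5 visual cycle rows summed to 93.1, 109 and 154 TPM in SBMO pools, 219, 165 and 151 TPM in SHMO pools and 319, 248 and 313 TPM in Ctrl pools. All SBMO and all SHMO pools lay below all Ctrl pools in that sum, and SBMO and SHMO pools overlapped. That order followed RPE65 ENSDARG00000007480 and rlbp1b, the largest of these rows in Ctrl pools. The row rlbp1a went the other way with SBMOs, at 58.0, 60.8 and 53.7 TPM in SBMO pools and 44.8, 36.3 and 42.8 TPM in Ctrl pools. RPE65 ENSDARG00000054420 also lay higher in all SBMO than in all Ctrl pools, and the remaining RPE65 row overlapped. These sums were not tested.

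**Figure D2:**
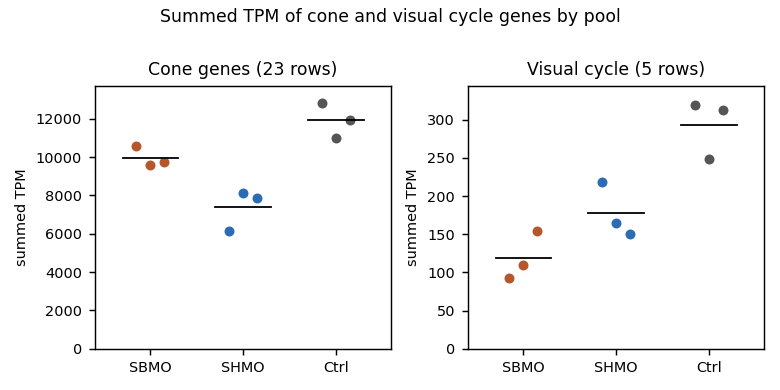
Summed TPM of 23 cone and 5 visual cycle rows in each of the 9 pools. Points are pools and lines group means. In both sums all SBMO and SHMO pools lie below all Ctrl pools. Within the visual cycle sum, rlbp1a goes the other way with SBMOs, at 53.7 to 60.8 TPM in SBMO pools and 36.3 to 44.8 TPM in Ctrl pools. Without pde6ha, which is part of the cone sum shown, SBMO and Ctrl pools overlap.

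Opsins are the light receptors. Of the 7 cone opsin rows, the green opsin opn1mw2 fell with SHMOs and the red opsin opn1lw1 rose with SBMOs, while the abundant opn1mw1, opn1lw2 and opn1sw2 were not called against Ctrl. The red opsin opn1lw2 had 1568 to 2002 TPM in SBMO pools, 1019 to 1312 TPM in SHMO pools and 1338 to 1736 TPM in Ctrl pools. SHMO pools lay lowest and did not overlap the SBMO or Ctrl pools, while SBMO and Ctrl pools overlapped. It was higher in SBMO than in SHMO larvae (log2(FC) 0.61, adjusted p = 0.0342, 0.029 to 0.121 over the alternatives), but leaving out any of 7 pools, all but SBMO replicate 3 and Ctrl replicate 3, ended that call. It was also lost without a low-value filter, without further scaling, with quantile normalization, with only these groups in the model and with a replicate block. Its near copy opn1lw1, far lower, had 3.63, 3.50 and 3.80 TPM in SBMO pools, 1.03, 1.26 and 1.37 TPM in SHMO pools and 1.99, 1.66 and 1.77 TPM in Ctrl pools. All 3 SBMO pools lay above all Ctrl pools, and all SHMO pools below them. It rose with SBMOs against Ctrl (log2(FC) 0.99 ± 0.19 (SE), adjusted p = 0.0102) and against SHMOs (log2(FC) 1.59 ± 0.19 (SE), adjusted p = 0.0029), and both calls held in every alternative that tested it. opn1lw1 made up 0.181, 0.218 and 0.242% in SBMO pools, 0.101, 0.096 and 0.108% in SHMO pools and 0.115, 0.124 and 0.107% in Ctrl pools of the TPM of the red opsins. Summed over both genes, the red opsins gave 2006, 1606 and 1572 TPM in SBMO pools, 1020.0, 1313 and 1263 TPM in SHMO pools and 1738, 1340.0 and 1658 TPM in Ctrl pools.

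The green opsin opn1mw2 had the largest difference in log2(FC) of the 50 members tested. It had 93.4, 18.6 and 13.1 TPM in SBMO pools, 5.20, 7.00 and 11.3 TPM in SHMO pools and 93.8, 62.5 and 78.3 TPM in Ctrl pools. SHMO pools all lay far below the Ctrl pools, SBMO replicates 2 and 3 lay between them, and SBMO replicate 1 lay within the Ctrl range. It fell with SHMOs to a mean that was 9.99-fold lower (log2(FC) -3.42 ± 0.59 (SE), adjusted p = 0.0094), and the call held in every alternative that tested it. With SBMOs the difference was not called (log2(FC) -1.42 ± 0.59 (SE), adjusted p = 0.101), but without SBMO replicate 1 it was (log2(FC) -2.25 ± 0.32, adjusted p = 0.00527). SBMO against SHMO it was not called either (log2(FC) 2.00 ± 0.59 (SE), adjusted p = 0.0834), and was called without SBMO replicate 3 (adjusted p = 0.0278). The main green opsin, opn1mw1, averaged 1067 ± 60.8 TPM in SBMO, 834 ± 96.9 TPM in SHMO and 916 ± 98.7 TPM in Ctrl pools, and was not called in any comparison. Of the TPM of the 4 green opsins, opn1mw2 made up 7.62, 1.73 and 1.28% in SBMO pools, 0.714, 0.793 and 1.23% in SHMO pools and 9.03, 7.19 and 7.28% in Ctrl pools. In the RefSeq annotation of the GRCz12tu assembly the 4 green opsin genes stand side by side on a single chromosome, and the red opsin genes do so as well. RSEM may divide reads that these copies share, so the split between opn1mw1 and opn1mw2 is less certain than their sum. The blue opsin opn1sw2 had log2(FC) values of 0.27 with SBMOs and 0.01 with SHMOs, neither called.

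**Figure D3:**
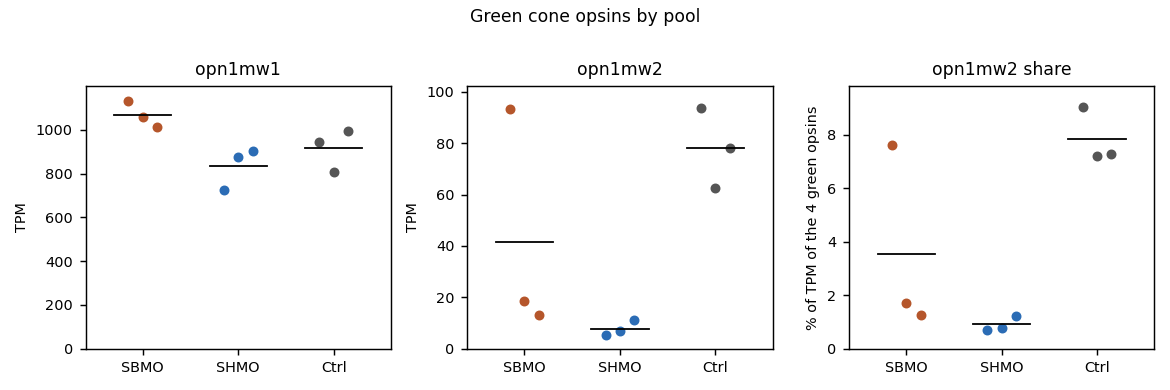
TPM of the green opsins opn1mw1 and opn1mw2 and the share of opn1mw2 in the TPM of the 4 green opsins, in each pool. Points are pools and lines group means. The share is 7.62% in SBMO replicate 1 and 1.28% to 1.73% in the other SBMO pools, 0.714% to 1.23% in SHMO pools and 7.19% to 9.03% in Ctrl pools.

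A row named OPN1SW, the symbol of the human short-wave opsin, lies outside the member rule and was looked at after its values were seen. It had 1829.7, 1870.5 and 1912 TPM in SBMO pools, 1545, 2034 and 1897 TPM in SHMO pools and 2436, 1846 and 1737 TPM in Ctrl pools, with overlapping groups, and was not called in any comparison. A row that the name table calls GNG11 and the study's annotation GNGT1, the rod transducin gamma subunit (ENSDARG00000035798), was likewise seen first. It had 447, 482 and 351 TPM in SBMO pools, 149, 238 and 233 TPM in SHMO pools and 272, 248 and 269 TPM in Ctrl pools. SBMO pools lay above all others, and it was higher with SBMOs against Ctrl (log2(FC) 0.70 ± 0.20 (SE), adjusted p = 0.0355) and against SHMOs (log2(FC) 1.15 ± 0.20 (SE), adjusted p = 0.0157). Over the alternatives the adjusted p ranged over 0.0124 to 0.12 against Ctrl, lost without SBMO replicate 1 or 2 or Ctrl replicate 1, 2 or 3, and over 0.0115 to 0.0869 against SHMOs, lost without SBMO replicate 2 and with only these groups in the model.

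Transducin passes the signal from opsin to PDE6 as an alpha, a beta and a gamma subunit. Of 2 cone gamma rows, GNGT2 ENSDARG00000010680 had 213, 149 and 159 TPM in SBMO pools, 55.0, 58.5 and 72.4 TPM in SHMO pools and 191, 189 and 210.2 TPM in Ctrl pools. SHMO pools lay well below the Ctrl and SBMO pools, which overlapped. It fell with SHMOs to a mean 3.18-fold lower (log2(FC) -1.74 ± 0.16 (SE), adjusted p = 0.000614) and was higher in SBMO than in SHMO larvae (log2(FC) 1.56 ± 0.16 (SE), adjusted p = 0.00198), and both calls held in every alternative that tested it. The more abundant row, GNGT2 ENSDARG00000103543, had 3577, 3007 and 2718 TPM in SBMO pools, 1500.1, 2339 and 2096 TPM in SHMO pools and 2603, 2132 and 2441 TPM in Ctrl pools. SBMO pools were highest, and SHMO and Ctrl pools overlapped in TPM before scaling, though not after division by the scaling factors of the tests. It was higher in SBMO than in SHMO larvae (log2(FC) 0.75, adjusted p = 0.034, 0.0264 to 0.131 over the alternatives), a call lost without SBMO replicate 1 or 2, SHMO replicate 1 or 3 or Ctrl replicate 1 or 2, without a low-value filter or further scaling, with only these groups in the model and with a replicate block. The rod alpha subunit GNAT1, given above, fell with SHMOs (log2(FC) -0.59, adjusted p = 0.0237, 0.0163 to 0.0826 over the alternatives), and all SHMO pools lay below all Ctrl pools. The call was lost without SHMO replicate 1, 2 or 3 or Ctrl replicate 1 or 2, without further scaling and with an added 1 in place of 0.1. It was higher in SBMO than in SHMO larvae (log2(FC) 0.74, adjusted p = 0.0155, 0.0131 to 0.0802 over the alternatives), lost without SBMO replicate 2 or SHMO replicate 1 and with only these groups in the model. The cone alpha subunit GNAT2 was not called, at a log2(FC) of 0.18 with SBMOs and 0.15 with SHMOs.

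Of the beta subunits, gnb3b averaged 694 ± 59.1 TPM in SBMO, 609 ± 80.6 TPM in SHMO and 891 ± 157 TPM in Ctrl pools. It fell with SHMOs (log2(FC) -0.61, adjusted p = 0.0191, 0.0172 to 0.0886 over the alternatives), and the call was lost without SHMO replicate 1 or 3 or Ctrl replicate 1 or 3, without further scaling and with quantile normalization. GNB3, met through the stem of gnb3b, averaged 48.7 ± 4.49 TPM in SBMO, 36.1 ± 6.28 TPM in SHMO and 31.0 ± 2.35 TPM in Ctrl pools and rose with SBMOs (log2(FC) 0.67, adjusted p = 0.0218, 0.0118 to 0.0818 over the alternatives). That call was lost without SBMO replicate 2 or Ctrl replicate 1 or 3 and with quantile normalization. In SBMO larvae gnb3b was not called (log2(FC) -0.33), and in SHMO larvae GNB3 was not (log2(FC) 0.14).

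The inhibitory subunits of the cone phosphodiesterase had opposite calls with SBMOs. pde6ha, which holds cone PDE6 back in the dark, had 1114, 1566 and 1834 TPM in SBMO pools, 709, 968 and 1029 TPM in SHMO pools and 3889.6, 3704 and 3597 TPM in Ctrl pools. All 6 injected pools lay below all Ctrl pools, and the SHMO pools below the SBMO pools. Its mean was 2.48-fold lower with SBMOs (log2(FC) -1.32 ± 0.20 (SE), adjusted p = 0.00596) and 4.14-fold lower with SHMOs (log2(FC) -2.13 ± 0.20 (SE), adjusted p = 0.000671), and both calls held in every alternative that tested it. Between SBMO and SHMO larvae it was not called (log2(FC) 0.81 ± 0.20 (SE), adjusted p = 0.0505), though without SBMO replicate 1 it was (adjusted p = 0.0138). PDE6H, a row of the same stem at far lower levels, had 9.10, 9.97 and 8.50 TPM in SBMO pools, 3.53, 3.73 and 3.45 TPM in SHMO pools and 4.29, 4.86 and 5.16 TPM in Ctrl pools. Its SBMO pools lay above all others and its SHMO pools below the Ctrl pools. It rose with SBMOs (log2(FC) 0.95 ± 0.16 (SE), adjusted p = 0.00782), was higher in SBMO than in SHMO larvae (log2(FC) 1.42 ± 0.16 (SE), adjusted p = 0.00277), and was not called in SHMO against Ctrl (log2(FC) -0.47); the calls held in every alternative that tested it.

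The catalytic subunit of cone PDE6, PDE6C, averaged 59.2 ± 15.8 TPM in SBMO, 99.4 ± 10.9 TPM in SHMO and 65.5 ± 23.6 TPM in Ctrl pools and was not called, with a log2(FC) of -0.09 with SBMOs and 0.61 with SHMOs. TPM of pde6ha per TPM of PDE6C came to 19.6, 35.1 and 24.1 in SBMO pools, 7.90, 9.94 and 9.26 in SHMO pools and 48.4, 47.5 and 94.0 in Ctrl pools, so that the 3 groups did not overlap. On the rod side, the 2 rows of the catalytic subunit PDE6B and the inhibitory subunit PDE6G were not called in any comparison. Their log2(FC) values lay between -0.12 and 0.55 with SBMOs and between -0.29 and -0.21 with SHMOs, and between 0.17 and 0.76 in SBMO against SHMO larvae. Without SBMO replicate 3, PDE6B ENSDARG00000000380 was called higher with SBMOs against Ctrl (adjusted p = 0.033) and against SHMOs (adjusted p = 0.0258). Without Ctrl replicate 3, PDE6G was called higher in SBMO than in SHMO larvae (adjusted p = 0.0326). The study's annotation names PDE6B ENSDARG00000000380 as PDE6A.

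Cyclic GMP-gated channels carry the current that light shuts off. CNGA3 ENSDARG00000070726, a cone alpha subunit, averaged 7.01 ± 2.40 TPM in SBMO, 7.47 ± 0.572 TPM in SHMO and 12.8 ± 0.549 TPM in Ctrl pools, and all injected pools lay below all Ctrl pools. The row fell with SBMOs (log2(FC) -0.89, adjusted p = 0.0199, 0.00814 to 0.0725 over the alternatives) and with SHMOs (log2(FC) -0.84, adjusted p = 0.0383, 0.0156 to 0.137 over the alternatives). The SBMO call was lost without SBMO replicate 2 or Ctrl replicate 2 or 3, and the SHMO call without SBMO replicate 2, SHMO replicate 2 or 3 or Ctrl replicate 1, 2 or 3 and with a replicate block. The beta subunits cngb3.1 and cngb1a were called higher in SBMO larvae. The cone subunit cngb3.1 averaged 2.06 ± 0.172 TPM in SBMO, 1.34 ± 0.26 TPM in SHMO and 1.15 ± 0.39 TPM in Ctrl pools (log2(FC) 0.85, adjusted p = 0.0488, 0.0239 to 0.124 over the alternatives), and its call was lost when any pool but SHMO replicate 1 was left out, and in 5 alternatives that kept all pools. The rod subunit cngb1a averaged 7.31 ± 0.54 TPM in SBMO, 4.70 ± 0.695 TPM in SHMO and 4.05 ± 1.38 TPM in Ctrl pools (log2(FC) 0.91, adjusted p = 0.0227, 0.0183 to 0.0836 over the alternatives), and its call was lost without SBMO replicate 2 or Ctrl replicate 3. cngb1b, both CNGA1 rows and the second CNGA3 row were not called in any comparison. That CNGA3 row, ENSDARG00000012297, ranged over 0.23 to 3.45 TPM within the SBMO pools alone, and without SBMO replicate 1 it was called lower with SHMOs (adjusted p = 0.0333).

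Arrestins cap the active opsin after kinases have marked it. ARR3 ENSDARG00000056511, a cone arrestin, had 100.0, 163 and 279 TPM in SBMO pools, 336, 348 and 364 TPM in SHMO pools and 707, 602 and 597 TPM in Ctrl pools. The 3 groups did not overlap, with SBMO pools lowest and Ctrl pools highest, and SBMO replicate 1 was lowest of all. Its mean with SBMOs fell to a value 3.51-fold lower (log2(FC) -1.92 ± 0.29 (SE), adjusted p = 0.0059), and the call held in every alternative that tested it. With SHMOs it was not called (log2(FC) -0.93 ± 0.29 (SE), adjusted p = 0.0705), though it was without SBMO replicate 1 (adjusted p = 0.00818) or SBMO replicate 3 (adjusted p = 0.0237), which belong to neither group of that comparison. Without SBMO replicate 3 it was also called lower in SBMO than in SHMO larvae (adjusted p = 0.0112). The other cone arrestin row, ARR3 ENSDARG00000098475, had 33.5, 67.0 and 128 TPM in SBMO pools, 73.3, 78.2 and 89.3 TPM in SHMO pools and 219, 239 and 268 TPM in Ctrl pools. All injected pools lay below all Ctrl pools, and the SHMO pools lay within the range of the SBMO pools. The row fell with SBMOs (log2(FC) -1.85 ± 0.38 (SE), adjusted p = 0.0136, 0.00649 to 0.0513 over the alternatives), a call lost without Ctrl replicate 3 alone, and with SHMOs (log2(FC) -1.66 ± 0.38 (SE), adjusted p = 0.0278, 0.00122 to 0.0954 over the alternatives), lost without SHMO replicate 2 or 3 or Ctrl replicate 1, 2 or 3. The rows counted as rod arrestins were not called. sagb averaged 150.3 ± 51.2 TPM in SBMO, 178 ± 5.89 TPM in SHMO and 204 ± 7.69 TPM in Ctrl pools (SBMO log2(FC) -0.47 ± 0.20 (SE), adjusted p = 0.109), but without SBMO replicate 3, the highest SBMO pool, it was called lower with SBMOs (log2(FC) -0.72, adjusted p = 0.0197). saga averaged 25.3 ± 1.59 TPM in SBMO, 34.4 ± 2.33 TPM in SHMO and 26.1 ± 2.65 TPM in Ctrl pools and was not called.

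Of the opsin kinases, a GRK7 row fell with SBMOs, and the other GRK7 row rose and grk1b fell with SHMOs. GRK7 ENSDARG00000020602, the more abundant cone kinase row, averaged 36.8 ± 14.8 TPM in SBMO, 50.2 ± 2.38 TPM in SHMO and 72.8 ± 1.06 TPM in Ctrl pools. It fell with SBMOs (log2(FC) -1.04, adjusted p = 0.0193, 0.00791 to 0.0608 over the alternatives), and the call was lost without SBMO replicate 2 or Ctrl replicate 3. With SHMOs it was called lower only without SBMO replicate 1 (adjusted p = 0.0363). GRK7 ENSDARG00000055534 had 2.06, 2.08 and 2.24 TPM in SBMO pools, 4.31, 5.74 and 5.66 TPM in SHMO pools and 2.68, 2.39 and 2.76 TPM in Ctrl pools. SHMO pools lay above all others, and SBMO pools below all others. It rose with SHMOs (log2(FC) 0.90 ± 0.17 (SE), adjusted p = 0.0143, 0.00781 to 0.076 over the alternatives), a call lost without SHMO replicate 2 or 3 or Ctrl replicate 1 or 2. It was lower in SBMO than in SHMO larvae (log2(FC) -1.17 ± 0.17 (SE), adjusted p = 0.00746, 0.00601 to 0.0527 over the alternatives), a call that held without each pool and was lost with only these groups in the model. grk1b, a kinase of cones, averaged 46.8 ± 8.37 TPM in SBMO, 33.4 ± 2.69 TPM in SHMO and 47.7 ± 5.29 TPM in Ctrl pools and was called lower with SHMOs (log2(FC) -0.58, adjusted p = 0.045, 0.0292 to 0.152 over the alternatives), at the limit of the call, which was lost without any of the 9 pools and in 4 alternatives that kept all pools. The rod kinase row GRK1 was not called.

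The genes that serve rods and cones alike, guanylate cyclases gucy2d and gucy2f and 2 rows of RGS9, gave 0 calls with limma in the 3 comparisons. At an unadjusted p under 0.05, 1 of the 4 was higher with SBMOs against Ctrl, 1 higher and 1 lower with SBMOs against SHMOs, and 0 differed with SHMOs. Their log2(FC) values lay between -0.50 and 0.46. RGS9 ENSDARG00000037925, the most abundant of them, had 16.3, 11.6 and 19.2 TPM in SBMO pools, 21.1, 26.1 and 22.2 TPM in SHMO pools and 25.1, 22.4 and 15.8 TPM in Ctrl pools. The groups overlapped, and SBMO replicate 2 was lowest.

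**Figure D4:**
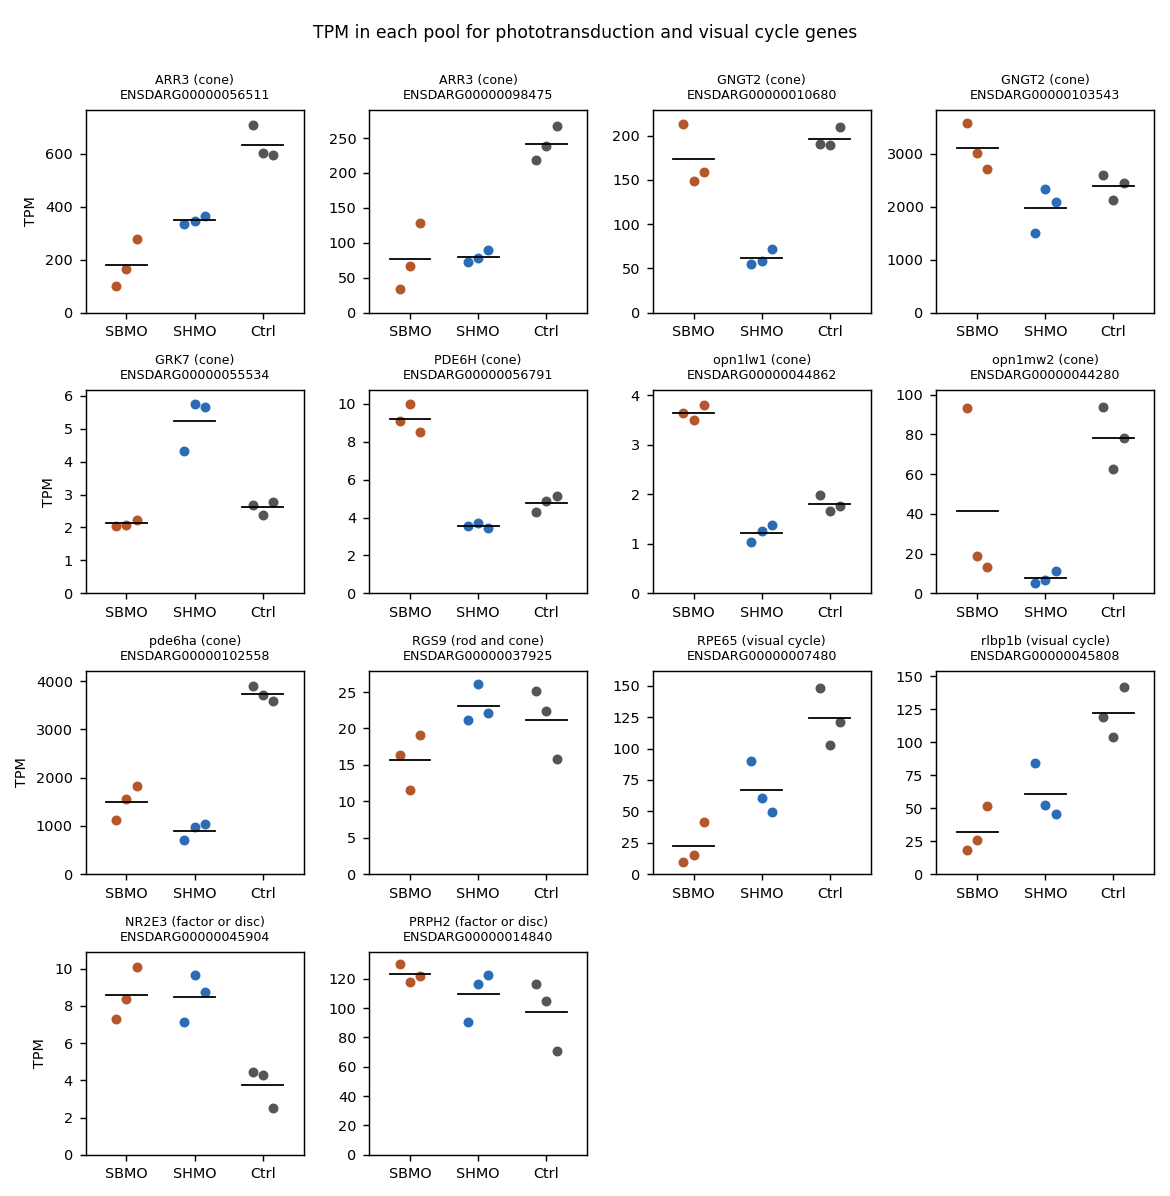
TPM in each pool for the 14 members whose pool values are given in full. Points are pools and lines group means, and each vertical axis starts at 0. Injected pools lie below all Ctrl pools for both ARR3 rows, pde6ha, RPE65 and rlbp1b, and above them for NR2E3.

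Of the 5 visual cycle rows, RPE65 and rlbp1b fell with SBMOs. RPE65 ENSDARG00000007480, by its symbol the isomerase of the pigment epithelium that makes 11-cis-retinol, had 9.77, 15.6 and 41.5 TPM in SBMO pools, 90.2, 60.4 and 49.3 TPM in SHMO pools and 149, 103 and 122 TPM in Ctrl pools. The 3 groups did not overlap, with SBMO pools lowest and Ctrl pools highest. With SBMOs it fell to a mean 5.58-fold lower (log2(FC) -2.71 ± 0.43 (SE), adjusted p = 0.00642), and the call held in every alternative that tested it. SHMO against Ctrl it was not called (log2(FC) -0.997 ± 0.43 (SE), adjusted p = 0.157), except without SBMO replicate 3 (adjusted p = 0.0465). Between SBMO and SHMO larvae it was not called (log2(FC) -1.71 ± 0.43 (SE), adjusted p = 0.0526), but without SBMO replicate 3 it was (log2(FC) -2.28, adjusted p = 0.00406).

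rlbp1b encodes a CRALBP protein, which carries 11-cis-retinal in pigment epithelium or Mueller glia, and had 18.0, 26.2 and 51.6 TPM in SBMO pools, 84.1, 52.1 and 45.9 TPM in SHMO pools and 119.4, 104 and 142 TPM in Ctrl pools. All injected pools lay below all Ctrl pools, and SBMO replicate 3 lay within the SHMO range. It fell with SBMOs (log2(FC) -2.04 ± 0.35 (SE), adjusted p = 0.00782), and the call held in every alternative that tested it. With SHMOs it was not called (log2(FC) -1.11 ± 0.35 (SE), adjusted p = 0.0708), but was without SHMO replicate 1 (log2(FC) -1.37, adjusted p = 0.0377), SBMO replicate 1 (adjusted p = 0.0306) or SBMO replicate 3 (adjusted p = 0.0322). Without SBMO replicate 3 it was called lower in SBMO than in SHMO larvae as well (adjusted p = 0.0289). Its duplicate rlbp1a averaged 57.5 ± 3.58 TPM in SBMO, 46.0 ± 5.73 TPM in SHMO and 41.3 ± 4.41 TPM in Ctrl pools. It was not called, at a log2(FC) of 0.50 with SBMOs, under the limit of 0.58, and 0.09 with SHMOs. RPE65 ENSDARG00000054420, at 1.34 to 3.14 TPM, was higher in SBMO than in SHMO larvae (log2(FC) 0.97, adjusted p = 0.025, 0.0225 to 0.116 over the alternatives), a call lost without SBMO replicate 2 or SHMO replicate 1 or 3, with only these groups in the model and with a replicate block. The remaining RPE65 row was not called.

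Genes of pigment cells had the same order among SBMO pools as RPE65 and rlbp1b, with SBMO replicate 1 lowest and SBMO replicate 3 highest. That order was not particular to them. Both ARR3 rows, pde6ha and sagb had it too, while opn1mw2 and opn1lw2 had SBMO replicate 1 highest. The median of 13 such genes lay -0.93, -0.47 and -0.06 log2 units in SBMO pools, 0.79, 0.19 and 0.13 log2 units in SHMO pools and 0.21, 0.14 and 0.20 log2 units in Ctrl pools from their mean, and the 14 rows of the list summed to 144, 194 and 258 TPM in SBMO pools, 458, 358 and 303 TPM in SHMO pools and 346, 276 and 289 TPM in Ctrl pools. Against Ctrl, 5 of the 13 (38.5%) fell with SBMOs and 1 (7.69%) rose, where 11.5% of all genes fell and 8.31% rose. The gene that rose was trpm1b (log2(FC) 0.69, adjusted p = 0.0309 with limma, 0.022 to 0.0941 over the alternatives). Its call was lost without SBMO replicate 1 or 2 or Ctrl replicate 1 or 3 and with a replicate block. Both trpm1b and TRPM1 also stand in the inner retina list, given below. With SHMOs 0 fell and 1 (7.69%) rose (0 lower at an unadjusted p under 0.05), where 5.32% of all genes fell and 3.58% rose. TYR, the first enzyme of melanin synthesis, had 0.32, 0.68 and 2.29 TPM in SBMO pools, 10.3, 2.67 and 1.48 TPM in SHMO pools and 5.86, 5.62 and 5.54 TPM in Ctrl pools. SBMO replicate 1 was lowest and SHMO replicate 1 highest, and SBMO pools all lay below the Ctrl pools (log2(FC) -2.63 ± 0.70 (SE), adjusted p = 0.0272, 0.00978 to 0.0852 over the alternatives). That call was lost without SBMO replicate 1 or 2 or Ctrl replicate 1, 2 or 3. The list does not tell pigment epithelium from pigment cells of the skin, and its part in the fall of RPE65 and rlbp1b was not tested.

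Of the photoreceptor factors, NR2E3, a nuclear receptor that sets rod against cone gene expression in the mouse, had 7.31, 8.37 and 10.1 TPM in SBMO pools, 7.14, 9.63 and 8.73 TPM in SHMO pools and 4.43, 4.31 and 2.51 TPM in Ctrl pools. All injected pools lay above all Ctrl pools, and Ctrl replicate 3 was lowest. It rose with SBMOs (log2(FC) 1.22 ± 0.23 (SE), adjusted p = 0.0106), a call that held in every alternative that tested it, and with SHMOs (log2(FC) 1.13 ± 0.23 (SE), adjusted p = 0.019, 0.0123 to 0.0813 over the alternatives), lost without SHMO replicate 2 or 3. crx ENSDARG00000011989, a homeobox factor of photoreceptors, averaged 50.5 ± 3.40 TPM in SBMO, 39.1 ± 11.0 TPM in SHMO and 24.5 ± 8.40 TPM in Ctrl pools. It rose with SBMOs (log2(FC) 1.12, adjusted p = 0.0224, 0.0109 to 0.0717 over the alternatives), a call lost without SBMO replicate 1 or 2 or Ctrl replicate 3. A further row, CRX ENSDARG00000043483, was not called (SBMO log2(FC) 0.79 ± 0.26 (SE), adjusted p = 0.0548), but was without SBMO replicate 1 (adjusted p = 0.0479) or SHMO replicate 1 (adjusted p = 0.043). PRPH2 ENSDARG00000014840, which shapes the rim of outer segment discs, had 130.2, 118 and 122 TPM in SBMO pools, 90.6, 116 and 123 TPM in SHMO pools and 116, 105 and 70.8 TPM in Ctrl pools. SBMO pools lay above all Ctrl pools, SHMO pools overlapped them, and neither it nor the other PRPH2 row was called in any comparison.

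Ctrl replicate 3 was the lowest Ctrl pool for NR2E3, crx and PRPH2 ENSDARG00000014840, and it was also the lowest in neuron genes. The 34 neuron genes lay 0.48, 0.31 and 0.20 log2 units in SBMO pools, -0.10, 0.29 and 0.24 log2 units in SHMO pools and -0.32, -0.20 and -0.82 log2 units in Ctrl pools from their mean, at the median. Against Ctrl, 18 of them (52.9%) rose and 1 (2.94%) fell with SBMOs, where 8.31% of all genes rose and 11.5% fell. With SHMOs 5 (14.7%) rose and 0 fell (0 lower at an unadjusted p under 0.05), where 3.58% of all genes rose and 5.32% fell. STMN2, a tubulin-binding protein of growing axons, had 109.9, 72.1 and 87.2 TPM in SBMO pools, 57.1, 83.2 and 87.0 TPM in SHMO pools and 41.0, 40.0 and 28.5 TPM in Ctrl pools, and its injected pools lay above all Ctrl pools (SBMO log2(FC) 1.31 ± 0.21 (SE), adjusted p = 0.00677; SHMO 0.98 ± 0.21 (SE), adjusted p = 0.0225, the SHMO call being lost without SHMO replicate 2 or 3 or Ctrl replicate 1 or 3). Of 36 inner retina genes 13 (36.1%) rose and 0 fell with SBMOs (1 lower at an unadjusted p under 0.05), and 2 (5.56%) rose and 0 fell with SHMOs (0 lower at that level). In pools of whole larvae this list does not tell the retina from other tissues. Of 21 lens genes 1 rose and 1 fell with SBMOs (4.76% each, under the shares of all genes). With SHMOs 2 lens genes (9.52%) rose and 0 fell (3 lower at that level). The part of these lists in the higher levels of NR2E3 and crx was not tested. Without Ctrl replicate 3, NR2E3 remained called with SBMOs and crx did not (log2(FC) 0.81, adjusted p = 0.0602).

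Of 27 other phototransduction genes tested, 5 (18.5%) fell and 1 (3.7%) rose with SBMOs, where 11.5% of all genes fell and 8.31% rose. With SHMOs 4 (14.8%) fell and 0 rose (2 higher at an unadjusted p under 0.05), where 5.32% of all genes fell and 3.58% rose. In pools of whole larvae the list does not tell photoreceptors from other tissues. GUCA1A ENSDARG00000100747 encodes an activator of the photoreceptor guanylate cyclase, and had 4.36, 6.66 and 14.9 TPM in SBMO pools, 2.35, 2.39 and 1.39 TPM in SHMO pools and 29.1, 24.4 and 27.3 TPM in Ctrl pools. The 3 groups did not overlap, with SHMO pools lowest. It fell with SBMOs (log2(FC) -1.80 ± 0.37 (SE), adjusted p = 0.0136) and with SHMOs (log2(FC) -3.75 ± 0.37 (SE), adjusted p = 0.000841), and was higher in SBMO than in SHMO larvae (log2(FC) 1.96 ± 0.37 (SE), adjusted p = 0.0212). The SBMO call against Ctrl was lost without SBMO replicate 2 (0.00596 to 0.053 over the alternatives), and that against SHMOs without SBMO replicate 2 or SHMO replicate 1 or 3 and with only these groups in the model (0.00588 to 0.103). RCVRN ENSDARG00000009637, of the recoverin family that restrains opsin kinases, had 64.2, 95.3 and 155 TPM in SBMO pools, 239, 208 and 232 TPM in SHMO pools and 369, 341 and 381 TPM in Ctrl pools. Again the groups did not overlap, but here SBMO pools were lowest, and SBMO replicate 1 lowest among them. RCVRN fell with SBMOs (log2(FC) -1.87 ± 0.26 (SE), adjusted p = 0.00482) and was lower in SBMO than in SHMO larvae (log2(FC) -1.12 ± 0.26 (SE), adjusted p = 0.04, 0.00642 to 0.131 over the alternatives). The last call was lost without SBMO replicate 2, SHMO replicate 1, 2 or 3 or Ctrl replicate 1, 2 or 3. It was also lost without a low-value filter and with only these groups in the model. guca1g, a relative of GUCA1A, fell in both treatments (SBMO log2(FC) -1.002 ± 0.27 (SE), adjusted p = 0.0291; SHMO -1.56 ± 0.27 (SE), adjusted p = 0.00967), the SBMO call being lost without SBMO replicate 1 or 2 or Ctrl replicate 2 or 3 and with only these groups in the model (0.00956 to 0.103 over the alternatives).

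Of 31 other genes of the visual cycle and of retinoid handling, 15 (48.4%) fell and 2 (6.45%) rose with SBMOs, and 10 (32.3%) fell and 4 (12.9%) rose with SHMOs. Over all genes 11.5% fell and 8.31% rose with SBMOs, and 5.32% fell and 3.58% rose with SHMOs. RDH8 ENSDARG00000028048, of the photoreceptor retinol dehydrogenases, had 17.5, 15.2 and 19.3 TPM in SBMO pools, 15.2, 13.2 and 13.9 TPM in SHMO pools and 37.2, 33.3 and 33.9 TPM in Ctrl pools. All injected pools lay below all Ctrl pools (SBMO log2(FC) -0.99 ± 0.13 (SE), adjusted p = 0.00445; SHMO -1.37 ± 0.13 (SE), adjusted p = 0.000614). A different row named RDH8, ENSDARG00000105060, rose in both treatments (SBMO log2(FC) 1.17 ± 0.18 (SE), adjusted p = 0.00582; SHMO 1.39 ± 0.18 (SE), adjusted p = 0.00264), so the family did not move in a single direction. RRH, an opsin-like protein of the pigment epithelium, fell in both (SBMO log2(FC) -1.15 ± 0.17 (SE), adjusted p = 0.00561; SHMO -1.66 ± 0.17 (SE), adjusted p = 0.000989). The pigment epithelium gene rdh5, named here after its values were seen, oxidises 11-cis-retinol and had 5.49, 5.38 and 11.7 TPM in SBMO pools, 20.7, 10.1 and 10.3 TPM in SHMO pools and 61.1, 49.2 and 47.0 TPM in Ctrl pools. Its injected pools all lay far below the lowest Ctrl pool (SBMO log2(FC) -2.86 ± 0.33 (SE), adjusted p = 0.00377; SHMO -2.07 ± 0.33 (SE), adjusted p = 0.00636).

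Of 40 other outer segment genes and photoreceptor factors, 5 (12.5%) rose and 1 (2.5%) fell with SBMOs, where 8.31% of all genes rose and 11.5% fell. With SHMOs 0 rose and 3 (7.5%) fell (4 higher at an unadjusted p under 0.05), where 3.58% of all genes rose and 5.32% fell. This list, NEUROD1 among it, likewise does not tell photoreceptors from other tissues in whole larvae. NEUROD1, a basic helix-loop-helix factor, had 243, 182 and 146 TPM in SBMO pools, 55.5, 75.2 and 79.5 TPM in SHMO pools and 163, 162 and 117 TPM in Ctrl pools. SHMO pools lay below all others, and SBMO pools overlapped the Ctrl pools. It fell with SHMOs (log2(FC) -1.14 ± 0.22 (SE), adjusted p = 0.0155) and was higher in SBMO than in SHMO larvae (log2(FC) 1.51 ± 0.22 (SE), adjusted p = 0.00739). The SHMO call was lost without Ctrl replicate 1 or 2 (0.00936 to 0.0539 over the alternatives), and the call between SBMO and SHMO larvae with only these groups in the model (0.00422 to 0.0511). The outer segment genes rom1a and PROM1 fell with SHMOs as well (log2(FC) -1.31, adjusted p = 0.0126, and -1.05, adjusted p = 0.0195). That rom1a call was lost without SHMO replicate 3 (0.00335 to 0.0596 over the alternatives), and the PROM1 call without SHMO replicate 3 or Ctrl replicate 1, 2 or 3 (0.00352 to 0.0909). With SBMOs rom1a was also called lower (log2(FC) -0.75, adjusted p = 0.05 with limma), at the limit of the call, which was lost in 14 of 18 alternatives.

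Genes of the circadian clock and of the pineal organ were looked at because the hour of collection is not given. Of 34 clock genes 3 (8.82%) rose and 2 (5.88%) fell with SBMOs against Ctrl, where 8.31% of all genes rose and 11.5% fell. With SHMOs 14 (41.2%) rose and 8 (23.5%) fell, where 3.58% of all genes rose and 5.32% fell. In SBMO against SHMO larvae 8 (23.5%) were higher and 12 (35.3%) lower, where 1.83% of all genes were higher and 2.74% lower. rorcb, a nuclear receptor of the clock, had 40.0, 44.4 and 24.7 TPM in SBMO pools, 2.19, 2.76 and 2.66 TPM in SHMO pools and 35.4, 32.0 and 28.1 TPM in Ctrl pools. SHMO pools lay far below all others (SHMO log2(FC) -3.66 ± 0.23 (SE), adjusted p = 0.000164; SBMO against SHMO 3.83 ± 0.23 (SE), adjusted p = 0.000196). Of 13 pineal genes tested 2 (15.4%) rose and 1 (7.69%) fell with SBMOs, and 0 rose and 2 (15.4%) fell with SHMOs (1 higher at an unadjusted p under 0.05). aanat2, the pineal enzyme of the daily melatonin rhythm, had 3.65, 4.98 and 3.49 TPM in SBMO pools, 1.63, 1.57 and 1.08 TPM in SHMO pools and 4.24, 3.81 and 4.14 TPM in Ctrl pools. SHMO pools again lay below all others (log2(FC) -1.53 ± 0.22 (SE), adjusted p = 0.00441 against Ctrl). Of the 50 members tested 11 (22.0%, where 3.54% of all genes tested did) likewise had their lowest 3 values in the SHMO pools. Among them were opn1mw2, pde6ha, opn1lw1, opn1lw2, GNAT1 and GNGT2 ENSDARG00000010680. The part of the clock genes and of the hour of collection in those differences was not tested.

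**Figure D5:**
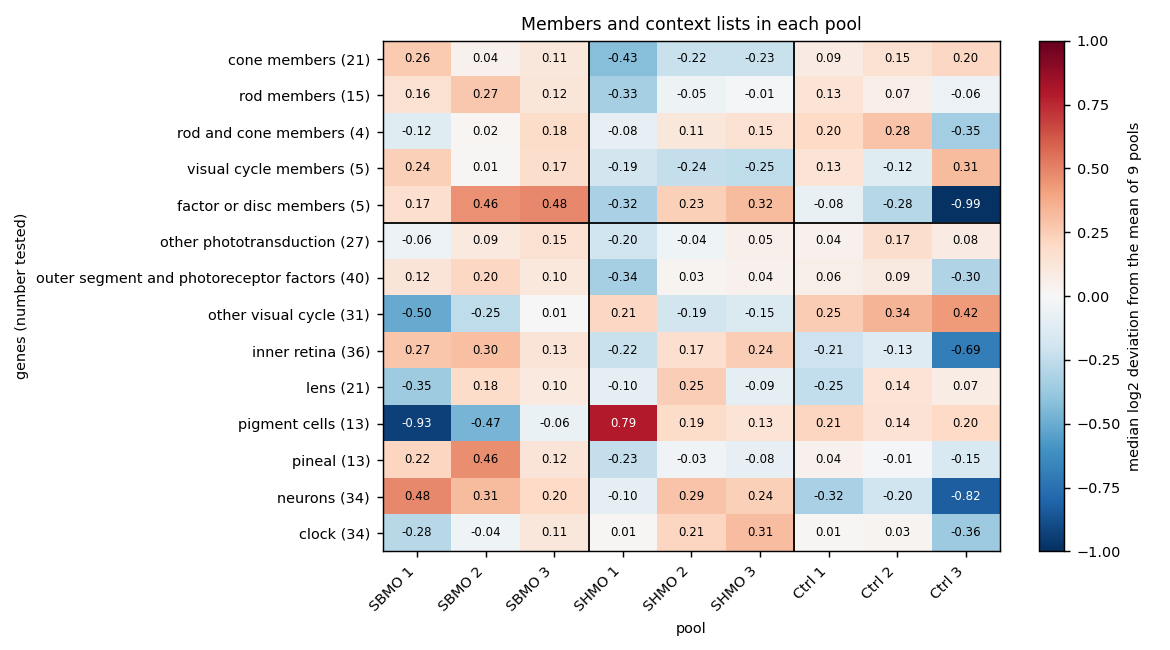
Median log2 deviation of each class of members (above the line) and of each context list (below it) from its mean over the 9 pools, in each pool. Colour and number give the median in log2 units, and the number of genes tested stands in parentheses. Pigment cell genes span -0.93 in SBMO replicate 1 to 0.79 in SHMO replicate 1, and neuron genes are lowest, at -0.82, in Ctrl replicate 3.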

How the data were processed

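RNA was sequenced from 9 pools of whole zebrafish larvae (3 SBMO, 3 SHMO and 3 Ctrl), as polyA-selected stranded libraries. The authors aligned trimmed reads to GRCz11 with STAR and deposited TPM values made with RSEM; tool versions were not stated in the labels or methods. Depth per pool cannot be read from TPM, and the study's fragment numbers were not used. Between 24452 and 25305 genes lay above 0 in a pool. Groups were taken from the labels of the samples. Gene symbols came from a name table, in which 29201 of the 32520 identifiers had a symbol.

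TPM were divided by median-ratio factors (0.93 to 1.08), 0.1 was added, and log2 values of the 19051 genes averaging 1 TPM or more were fitted in limma 3.58.1 (R 4.3.3) with 3 groups, eBayes with trend and Benjamini-Hochberg adjustment over all genes in each of 3 comparisons. The authors used DESeq2, which needs counts and was therefore not used here. The procedure was also run on simulated data with independent noise for each gene. Its outcome is not given here, so it does not bear on calls near the limit. Tables and plots were made in Python 3.11.15 with matplotlib 3.10.9.

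The members and gene lists were chosen with earlier results of these data known, so lists are described by counts and medians and were not tested. Pool values are given for the 12 called members with the smallest adjusted p and for the most abundant member of each class, and for up to 3 called genes of each list; exceptions are said in the text. Some member rows are counted among the members and in the class medians but are not reported here. Replicate numbers were not treated as pairing the pools in the main model. Alternatives changed the added constant, the filter, the scaling, the groups in the model, the prior, the matching of symbols or a replicate block, and left out each pool in turn. Both injected groups are compared with non-injected larvae. No sequences are shown because no genome or sequence table of the build was used.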

Additional observations from a re-analysis of the deposited data

How the results depend on the processing

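Of 35 calls of single members, 14 were lost in no alternative, 20 were lost without at least 1 pool and 13 in an alternative that kept all pools; 0 reversed direction. Without each pool in turn, members called with SHMOs against Ctrl numbered 0 to 2 higher and 4 to 12 lower, with SBMOs against Ctrl 3 to 10 higher and 4 to 8 lower, and in SBMO against SHMO larvae 3 to 10 higher and 1 to 4 lower. The median log2(FC) ranged over -0.33 to -0.19 (all members), -0.26 to -0.051 (rod), -0.59 to -0.49 (cone) and -0.51 to -0.36 (visual cycle) with SHMOs against Ctrl. With SBMOs against Ctrl it ranged over 0.06 to 0.13, 0.08 to 0.20, -0.12 to 0.051 and -0.06 to 0.16 in the same order, and in SBMO against SHMO larvae over 0.20 to 0.37, 0.19 to 0.41, 0.34 to 0.52 and 0.31 to 0.44.

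With a filter at a mean of 5 TPM, 1 member was called higher with SHMOs and 0 lower in SBMO against SHMO larvae, the visual cycle medians were -0.997 (SHMOs), -2.04 (SBMOs) and -0.93 (SBMO against SHMO), and the rod median of the last was 0.64; fewer rows were tested. With an added constant of 1 the cone median with SHMOs was -0.46, and with quantile normalization that of SBMO against SHMO larvae was 0.29. In SBMO against SHMO larvae 5 members were higher with no filter, 5 with no further scaling (2 lower), and 3 with only these groups in the model (0 lower). With rows of the exact member symbol only, SHMO larvae had 1 higher member and medians of -0.10 (all) and -0.46 (cone). SBMO larvae then had 2 lower members and medians of 0.15 (cone) and -0.77 (visual cycle), and SBMO against SHMO larvae 4 higher, 0 lower and medians of 0.56 (cone) and -0.26 (visual cycle). The causes of these shifts were not tested. For none of the alternatives was the share of all genes called worked out, so their member counts cannot be set against it.

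Deviations from the group mean correlated at -0.26 to 0.15 between same-numbered pools of different groups, and at -0.31 to 0.33 between differently numbered ones. Same-numbered pools were thus not more alike, but whether they shared a spawning or a batch cannot be told from these values. With the replicate number as a block, members called were 2 higher and 7 lower (SHMO against Ctrl), 6 higher and 7 lower (SBMO against Ctrl), and 5 higher and 1 lower (SBMO against SHMO). Adding OPN1SW and ENSDARG00000035798, chosen after their values were seen, gave 9 higher members with SBMOs against Ctrl and 9 against SHMOs. TPM do not show depth and the study's fragment numbers were not used, so the precision of the rows under 10 TPM is not given apart from the spread between 3 pools.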
